A study of Homo sapiens with 12 samples.

Results

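Mitophagy, the removal of mitochondria by autophagy, was followed in human embryonic stem cells (hESCs) through the mRNAs of 7 genes, BNIP3, BNIP3L, FUNDC1, PINK1, PHB2, BCL2L13 and FKBP8. They were chosen by symbol, as 7 of the 28278 genes in the deposited count table, and each of the 7 was among the 15916 genes that passed the filter on low counts. The cells were of the established line WA26, either wild type (WT) or with UBQLN1 deleted by CRISPR/Cas9 and a pair of guides (KO). UBQLN1 encodes ubiquilin 1, which carries ubiquitinated proteins to the proteasome. There were 4 groups of 2 libraries: WT cells in normal oxygen, KO cells in normal oxygen, KO cells in 5% O2, and KO cells treated with the antioxidant N-acetyl-L-cysteine (NAC). Normal oxygen is 20% O2 in the study's account. The labels name no vehicle for the KO controls, which are labelled by normal oxygen alone. In the study's scheme, NAC was given over a series of passages with DMSO as its control. Whether the controls used here match in vehicle or passage is not known, so NAC and such differences cannot be told apart. The exposure to 5% O2 is given with different lengths in the study's text and its scheme. WT cells in 5% O2 or with NAC were not analysed here, so both treatments were measured in KO cells. The study picked clones of each genotype, and the labels do not tie a library to a clone. A clone's own state and the loss of UBQLN1 therefore cannot be told apart, and the p-values measure the spread between these libraries.

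Mitophagy is started along several routes. BNIP3 and BNIP3L (also called NIX) are receptors in the outer mitochondrial membrane that bind LC3 and GABARAP proteins of the autophagosome, and both are known targets of the hypoxia-inducible transcription factors (HIF). FUNDC1 is a further outer membrane receptor, known from mitophagy in low oxygen and controlled largely by phosphorylation. PINK1 is a kinase that builds up on depolarised mitochondria and phosphorylates ubiquitin, after which adaptors such as optineurin (OPTN) join the ubiquitin coat to the autophagosome. PHB2, an inner membrane prohibitin, BCL2L13 and FKBP8 are LC3-binding mitophagy receptors with other known functions in mitochondria or protein folding.

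The RefSeq promoter table (GRCh38.p14) held entries for BNIP3, FUNDC1, PHB2 and BCL2L13. The sequences before the start of BNIP3, the gene with the largest change, and of FUNDC1, a receptor linked to the same oxygen condition, are shown for comparison. Capitals mark the core of the HIF binding motif, ACGTG or GCGTG, searched on both strands.
BNIP3, chr10:131981968-131982173, minus strand: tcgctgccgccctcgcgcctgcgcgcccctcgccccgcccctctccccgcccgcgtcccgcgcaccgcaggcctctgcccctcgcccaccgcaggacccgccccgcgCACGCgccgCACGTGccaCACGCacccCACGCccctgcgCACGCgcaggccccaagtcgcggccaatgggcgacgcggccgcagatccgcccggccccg
FUNDC1, chrX:44542860-44543109, minus strand: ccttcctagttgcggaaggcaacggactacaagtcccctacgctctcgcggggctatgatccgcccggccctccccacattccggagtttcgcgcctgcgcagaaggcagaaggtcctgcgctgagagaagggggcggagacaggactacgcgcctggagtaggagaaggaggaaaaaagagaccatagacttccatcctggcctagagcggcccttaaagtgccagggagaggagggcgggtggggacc
The BNIP3 window held 1 CACGTG, which reads as ACGTG on either strand, starting 90 bases from the gene end of the window. It also held 4 copies of GCGTG, all on the strand opposite to the one printed, at 99, 81, 72 and 60 bases. The FUNDC1 window held neither motif. Among 35116 RefSeq promoter windows of 250 bases, 18.51% held ACGTG, 32.22% held GCGTG, 43.21% held either, 6.345% held CACGTG and 1.125% held at least 4 copies of GCGTG. The BNIP3 window is shorter than those, at 206 bases. Both PHB2 windows held neither motif, and 1 of the 3 BCL2L13 windows held GCGTG.

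On GRCh38, with gene bounds from GENCODE v44, BNIP3 is at chr10:131967684-131981967 on the minus strand and BNIP3L at chr8:26383054-26505636 on the plus strand. FUNDC1 is at chrX:44523639-44542859 on the minus strand and PINK1 at chr1:20633458-20651511 on the plus strand. PHB2 is at chr12:6965327-6970780 on the minus strand, BCL2L13 at chr22:17628855-17730855 on the plus strand and FKBP8 at chr19:18531751-18544077 on the minus strand.

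The libraries held between 31236968 and 41639350 counts. Levels are given as CPM, read counts scaled to the size of each library, adjusted by edgeR's TMM method, and levels are compared between genes only after division by transcript length in kilobases. The cell type marker values below are the exception, as CPM without the TMM adjustment. The TMM factors ran from 0.939 for NAC library 1 to 1.05 for KO library 1 in normal oxygen. The targeted gene followed its labels: UBQLN1 was at 221 and 197 CPM in WT and between 42.3 and 62.4 CPM in the 6 KO libraries. The 12 pluripotency markers were above 0 in each library, with sums from 6529 to 8526 CPM, and the sums were lowest with NAC (7002 and 6529). DNMT3B alone went from 2690 and 2569 CPM in untreated KO cells to 1067 and 1359 with NAC. DPPA4 went the other way, from 720 and 709 to 1066 and 1027. At an edgeR adjusted p under 0.05, 3 of the 12 were higher and 4 lower with NAC than in untreated KO, where 44.6% of all tested genes were called. The 8 neuroectoderm markers summed to 894 to 896 CPM in WT, 1241 to 1242 in untreated KO, 931 to 1024 in 5% O2 and 638 to 730 with NAC, and the 8 mesoderm and endoderm markers to between 2.67 and 9.71 CPM. The part of these markers in the results was not tested. Library 1 of the NAC group stood apart in fibroblast markers. It held 10 of 10 of them above 0 with a sum of 1042 CPM, against 6 to 8 of 10 and sums of 513 to 668 CPM in the other libraries. The defining fibroblast genes DCN and LUM were at 0 in the other 7 libraries and at 44.3 and 3.63 CPM in that one. Fold changes also followed base composition across 15281 genes: the Spearman correlation of log2 fold change with GC content was 0.14 for KO against WT, -0.33 for 5% O2 and -0.49 for NAC. Treatment results are therefore also given after a smooth dependence on transcript length and GC content was taken out of each library, and NAC results that moved without library 1 are given without it.

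In normal oxygen the per-kilobase levels of the 7 genes spread over more than an order of magnitude. In WT cells PHB2 was at 395 ± 41.9 (SD, n = 2) TMM-scaled CPM per kilobase, FKBP8 at 228 ± 6.86 and BNIP3 at 50.4 ± 3.78. BCL2L13 at 14.3 ± 0.0558, FUNDC1 at 12.7 ± 0.330 and BNIP3L at 12.0 ± 0.417 followed, and PINK1 was lowest at 6.28 ± 0.231. FUNDC1 and BNIP3L were closer than the sum of their SDs, and every other pair of neighbours in this order was further apart than that. KO cells in normal oxygen had the same order, again with FUNDC1 (11.6 ± 0.479) and BNIP3L (10.9 ± 0.597) not separable. In 5% O2 BNIP3 reached 276 ± 18.6 and passed FKBP8 (223 ± 14.7), and BNIP3L at 29.8 ± 1.66 passed FUNDC1 (15.05 ± 1.01) and BCL2L13 (13.6 ± 0.773), which were closer than their spread. With NAC the levels of BNIP3L (20.4 ± 5.54), FUNDC1 (18.1 ± 0.944) and BCL2L13 (15.7 ± 3.16) were not separable as neighbours, and PINK1 was lowest at 2.52 ± 0.0618. Of the 31-base words in the BNIP3 transcript, 47.35% also occur elsewhere on the primary chromosomes, against 0% to 5.86% for the other 6 genes. Reads that match several places were not counted, so the BNIP3 level may be understated relative to the others. Of the PINK1 exon bases, 39.46% are shared with an antisense gene, PINK1-AS. Reads over both genes were not counted, so the PINK1 level may be understated too.

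**Figure D1:**
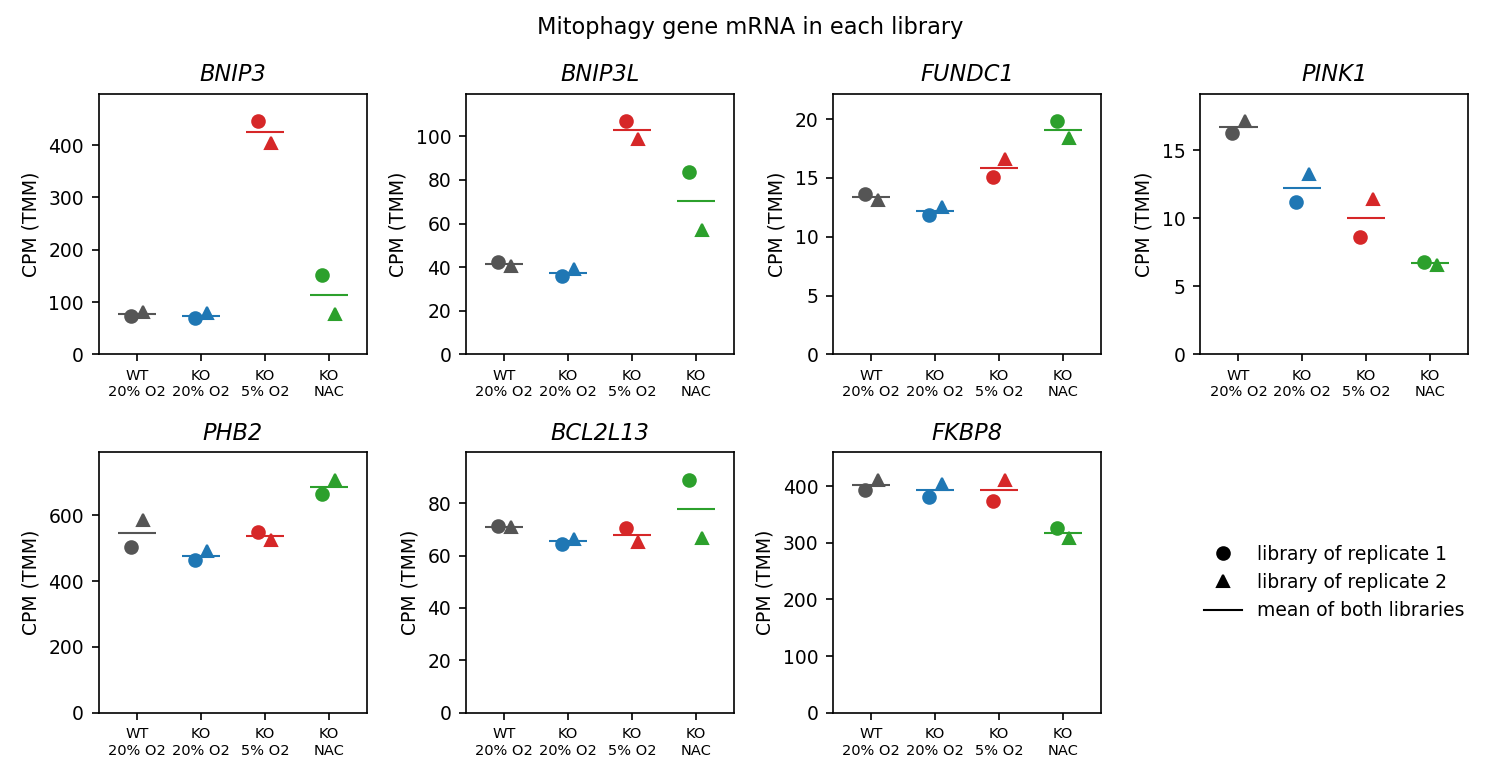
Levels of the 7 mitophagy genes in each library, in TMM-scaled CPM on axes that start at 0. Circles and triangles are replicate libraries 1 and 2 of each group and bars are their means, with BNIP3 at 445 and 405 CPM in 5% O2 against 68.9 and 78.3 CPM in untreated KO cells.

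The comparison of KO with WT cells in normal oxygen asks whether loss of UBQLN1 moved the mRNAs of the mitophagy machinery. None of the 7 genes passed an adjusted p under 0.05, by edgeR's quasi-likelihood test and the Benjamini-Hochberg method, against 1.96% of all tested genes. PINK1 alone was under 0.05 before adjustment in the edgeR fit, and DESeq2 and the other alternatives also gave 0 calls. The study's rule on fold size, which it used with DESeq2, was applied here to the edgeR fit. It asks for p under 0.05 with no adjustment and a log2 fold change beyond 1 in either direction. On that rule 0 of 7 genes were called where 2.57% of all tested genes were. All genes called were 213 higher and 99 lower, or 87 higher and 95 lower with the length and GC trend removed. BNIP3 was at 73.5 and 81.8 CPM in WT and at 68.9 and 78.3 CPM in KO. These ranges overlapped, with a log2 fold change of -0.078 ± 0.22 (SE, adjusted p = 0.895, 95% interval -0.57 to 0.41). BNIP3L was at 42.4 and 40.3 CPM in WT and at 36.0 and 39.0 CPM in KO, without overlap, and its log2 fold change was -0.14 (standard error 0.15, adjusted p = 0.677, 95% interval -0.47 to 0.19). FUNDC1 differed by -0.13 on the log2 scale (standard error 0.13, adjusted p = 0.646).

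PINK1 was at 16.2 and 17.1 CPM in WT and at 11.2 and 13.3 CPM in KO. Both KO libraries were below both WT libraries, with a log2 fold change of -0.45 ± 0.17 (SE, adjusted p = 0.199, 95% interval -0.82 to -0.076). PHB2 (-0.19), BCL2L13 (-0.11) and FKBP8 (-0.036) had smaller log2 fold changes. The sign was negative for 7 of the 7 genes. The 2 groups did not overlap for 5 of the 7, a share to be read beside 54.7% of all tested genes, and the sign of BNIP3, FUNDC1 and FKBP8 turned under some alternatives. GENCODE gives 39.46% of the PINK1 exon bases as shared with its antisense gene PINK1-AS. The libraries were not stranded and reads over both genes were not counted, so how far the PINK1 counts cover the shared stretch is not known.

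Beyond the 7 genes, OPTN, the adaptor that ties ubiquitin-coated mitochondria to LC3, was lower in KO cells. It was at 32.1 and 30.8 CPM in WT and at 9.62 and 10.2 CPM in KO in normal oxygen. The 2 groups were far apart, with a log2 fold change of -1.67 ± 0.21 (SE, adjusted p = 0.00152), and -1.66 (adjusted p = 0.00199) with the length and GC trend removed. OPTN stayed low in the treated KO cells, at 10.1 and 9.22 CPM in 5% O2 and 16.4 and 9.52 CPM with NAC, the 16.4 being the library with fibroblast transcripts. Against WT its log2 fold change was -1.70 (adjusted p = 0.000916) in 5% O2 and -1.27 (adjusted p = 0.000698) with NAC. OPTN was the single call among 64 tested genes of a wider pathway list of 65, where 1.96% of all tested genes were called. That list joins the PINK1 pathway, regulators and partners of the receptors, and the LC3 and GABARAP genes, and leaves out the 7 genes described here. The median log2 fold change of this list was -0.078, against -0.0024 over all tested genes.

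Culture in 5% O2 asks how KO cells respond to less oxygen, and its controls are the untreated KO libraries that also enter the comparisons with WT and with NAC. BNIP3 and BNIP3L rose, while the other 5 genes did not pass the test in the fit of all 8 libraries. That is 2 of 7 genes called, both higher, where 7.81% of all tested genes were called, 3.68% higher and 4.13% lower. By the rule on fold size the same 2 genes were called, where 2.02% of all tested genes were. With the length and GC trend removed the same pair was called, and the split of all calls moved from 586 higher and 657 lower to 272 higher and 51 lower.

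BNIP3 was at 68.9 and 78.3 CPM in KO cells in normal oxygen and at 445 and 405 CPM in 5% O2. The 2 low-oxygen libraries lay far above the others, a 5.78-fold rise (log2 fold change 2.53, standard error 0.23, adjusted p = 0.000227). BNIP3L was at 36.0 and 39.0 CPM in normal oxygen and at 107 and 98.7 CPM in 5% O2. Its groups were again separate, with a 2.74-fold rise (log2 fold change 1.45, standard error 0.15, adjusted p = 0.00053). The ratio of BNIP3 to BNIP3L levels per kilobase was 4.28 and 4.50 in normal oxygen and 9.33 and 9.18 in 5% O2, so the pair rose unequally. With the trend removed the log2 fold changes were 2.28 (adjusted p = 0.000641) for BNIP3 and 1.26 (adjusted p = 0.00237) for BNIP3L, and leaving out any 1 library kept both calls.

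FUNDC1, the third receptor linked to low oxygen, was at 11.8 and 12.6 CPM in normal oxygen and at 15.1 and 16.6 CPM in 5% O2. The groups did not overlap, but the log2 fold change of 0.38 (standard error 0.13) had an adjusted p of 0.0996 in the edgeR fit. It was 0.016 (adjusted p = 0.973) with the trend removed. Over the fits without 1 library it ran from 0.31 to 0.44, and its side of the threshold was not the same in all of them. PINK1 was at 8.61 and 11.4 CPM in 5% O2, and the higher of these lay above the lower KO library in normal oxygen at 11.2 CPM. Its log2 fold change was -0.29 (standard error 0.17, adjusted p = 0.325, 95% interval -0.67 to 0.086), or -0.16 (adjusted p = 0.651) with the trend removed. Without low-oxygen library 1 it was -0.097 and without low-oxygen library 2 it was -0.51, and without KO library 2 it was -0.16, none of them called. PHB2 had a log2 fold change of 0.17 (adjusted p = 0.267, 95% interval -0.026 to 0.36), and 0.16 with the trend removed. BCL2L13 at 0.048 (95% interval -0.22 to 0.32) and FKBP8 at 0.00092 (95% interval -0.18 to 0.18) lay nearest to 0, with overlapping libraries, and stood at 0.13 and 0.16 with the trend removed, neither called. In all, 4 of 7 genes had groups that did not overlap, where 60.9% of all tested genes did.

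**Figure D2:**
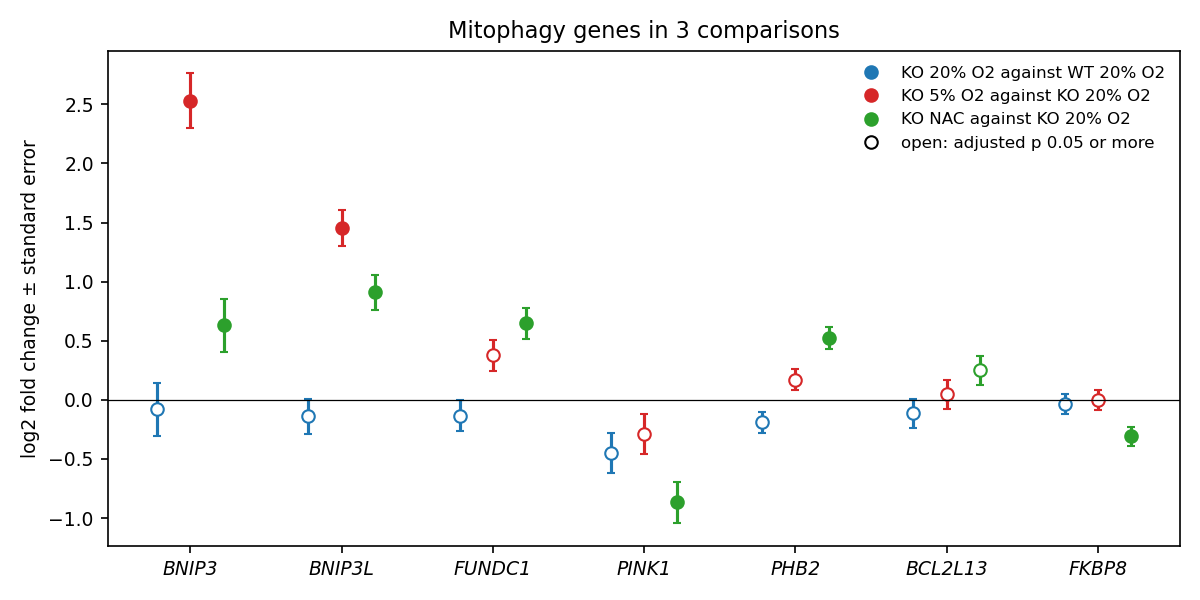
Log2 fold change of each mitophagy gene with its standard error in 3 comparisons, with filled circles for an adjusted p under 0.05. BNIP3 and BNIP3L stand alone as called genes in 5% O2, at 2.53 and 1.45, while with NAC 4 genes are called higher and PINK1 (-0.87) and FKBP8 (-0.31) lower.

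Known HIF targets moved alongside BNIP3 and BNIP3L. Of 32 such genes, a list that holds neither of them, 23 were higher and 0 lower in 5% O2, where 3.68% of all tested genes were higher and 4.13% lower, and 32 of 32 had a positive log2 fold change with a median of 1.35. The trend-removed values again had 23 higher, around a median of 1.31, where 2.11% of all genes were called. In KO against WT in normal oxygen 0 of the 32 were called by edgeR, with a median of -0.045, while 3 were higher and 3 lower at an unadjusted p under 0.05. Of 14 nuclear genes for mitochondrial proteins and their regulators, 2 were higher and 1 lower in 5% O2, with a median of 0.081, and 0 were called with the trend removed. In RNA from whole cultures, a changed level per cell and a changed number of cells that make the RNA cannot be told apart.

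The wider pathway list held 4 higher and 1 lower gene of 64 in 5% O2, a share close to the 7.81% of all tested genes called, with a median log2 fold change of 0.10. OMA1, a stress-activated inner membrane protease, rose by 0.58 (standard error 0.14, adjusted p = 0.0308). NIPSNAP2, which flags damaged mitochondria for autophagy, rose by 0.52 (adjusted p = 0.0249), and so did PMPCB, a subunit of the matrix protease that trims imported PINK1 (0.52, adjusted p = 0.0332). VDAC2, an outer membrane channel, rose by 0.33 (adjusted p = 0.0389). ULK1, the kinase that starts autophagy and phosphorylates FUNDC1, fell by 0.52 on the log2 scale (standard error 0.10, adjusted p = 0.0170). None of these 5 was called with the trend removed, nor without KO library 1, KO library 2 or low-oxygen library 1, when their adjusted p ran from 0.138 to 0.338. OMA1 and PMPCB were also not called without low-oxygen library 2 or either WT library, nor VDAC2 without low-oxygen library 2. The 7 LC3 and GABARAP genes held 0 calls in either direction by edgeR, with 4 higher and 0 lower at an unadjusted p under 0.05.

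NAC asks the same of an antioxidant. FUNDC1, BNIP3L, PHB2 and BNIP3 rose with NAC, and PINK1 and FKBP8 fell. These 6 of 7 calls, 4 higher and 2 lower, stand against 44.6% of all tested genes called, 23.8% higher and 20.8% lower, in a comparison where close to every other gene moved. The groups did not overlap for 6 of the 7 genes, against 70.2% of all tested genes. With the length and GC trend removed, PINK1 and PHB2 kept their calls, BCL2L13 gained one, and the share of all genes called was 26.3%. By the rule on fold size 0 of 7 genes were called, where 9.02% of all tested genes were.

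PINK1 was at 11.2 and 13.3 CPM in untreated KO cells and at 6.81 and 6.58 CPM with NAC. Both NAC libraries were below the other 6 libraries. PINK1 fell by 0.87 on the log2 scale (standard error 0.18, adjusted p = 0.00171). With the trend removed it fell by 0.57 on the log2 scale (adjusted p = 0.0238), and without NAC library 1 it fell by 0.90 (adjusted p = 0.00270). PINK1-AS, the antisense gene, had 61 and 72 counts in untreated KO cells and 51 and 30 with NAC, in libraries of unequal depth.

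BNIP3L was at 36.0 and 39.0 CPM in untreated KO cells and at 83.9 and 56.8 CPM with NAC. Both NAC libraries were above both controls, and library 1 was the higher. BNIP3L rose 1.88-fold (log2 fold change 0.91, standard error 0.15, adjusted p = 0.000461), by 0.60 (adjusted p = 0.000547) without NAC library 1, and had a log2 fold change of 0.33 (adjusted p = 0.126) with the trend removed. BNIP3 was at 68.9 and 78.3 CPM in untreated KO cells and at 151 and 76.8 CPM with NAC. NAC library 1 was high and library 2 lay between the controls, so the groups overlapped although the log2 fold change of 0.63 (standard error 0.22) had an adjusted p of 0.0373. Without NAC library 1 the log2 fold change of BNIP3 was 0.058 (adjusted p = 0.720), with the trend removed it was -0.019 (adjusted p = 0.960), and DESeq2 gave an adjusted p of 0.153. Leaving out any other library except NAC library 2 also ended the BNIP3 call, with adjusted p from 0.0593 to 0.195. The high library is the one that held DCN, LUM and COL3A1 transcripts, whose part in the BNIP3 and BNIP3L levels was not tested.

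FUNDC1 was at 11.8 and 12.6 CPM in untreated KO cells and at 19.8 and 18.4 CPM with NAC. The 2 NAC libraries were close to each other and above the other 6 libraries, a 1.57-fold rise (log2 fold change 0.65, standard error 0.13, adjusted p = 0.00187). The direction turned to -0.32 (adjusted p = 0.118) with the trend removed. FUNDC1 and BNIP3L transcripts are poor in GC, at 38.05% and 37.4%, lower than all but 8.38% and 6.19% of tested genes. BNIP3 stands at 41.9% and PINK1 at 58.5%.

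PHB2 was at 465 and 491 CPM in untreated KO cells and at 666 and 707 CPM with NAC. Both NAC libraries were above the other 6, a 1.44-fold rise (log2 fold change 0.52, standard error 0.09, adjusted p = 0.00058) that was 0.50 (adjusted p = 0.000916) with the trend removed. FKBP8 was at 380 and 404 CPM in untreated KO cells and at 325 and 308 CPM with NAC. Its 2 NAC libraries were the lowest of the 8, and it fell by 0.31 on the log2 scale (standard error 0.08, adjusted p = 0.00980), but the value was 0.052 (adjusted p = 0.659) with the trend removed, and -0.27 (adjusted p = 0.0974) without KO library 2. FKBP8 is the most GC-rich of the 7 transcripts, at 66.1%. BCL2L13 was at 64.6 and 66.4 CPM in untreated KO cells and at 88.8 and 66.7 CPM with NAC. Its log2 fold change was 0.25 (standard error 0.12, adjusted p = 0.124), 0.39 (adjusted p = 0.0286) with the trend removed, and 0.023 without NAC library 1 against 0.44 (adjusted p = 0.00245) without NAC library 2.

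**Figure D3:**
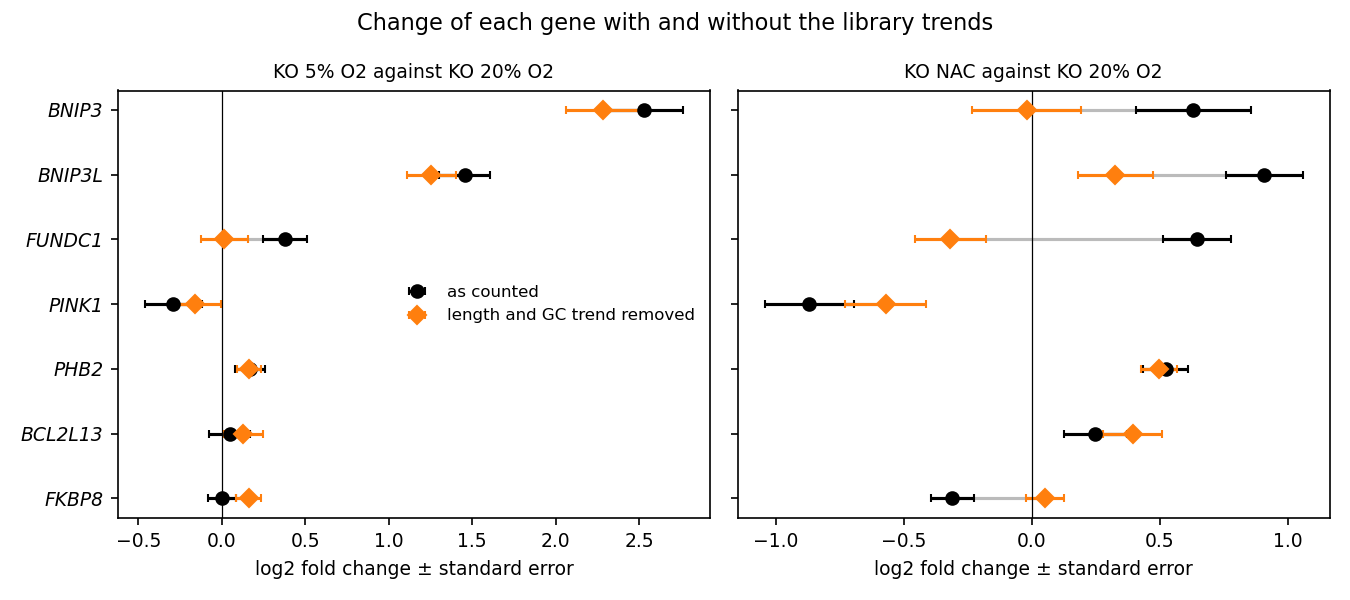
Log2 fold change of each mitophagy gene with its standard error, as counted (circles) and with the trend on transcript length and GC content removed (diamonds), in 5% O2 at left and with NAC at right. BNIP3 moves from 2.53 to 2.28 in 5% O2, while with NAC FUNDC1 moves from 0.65 to -0.32 and PINK1 from -0.87 to -0.57.

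The wider pathway list held 33 higher and 10 lower genes with NAC among 64 tested, with a median log2 fold change of 0.34 against 0.023 over all tested genes, of which 23.8% were higher and 20.8% lower. With the trend removed it held 18 higher and 6 lower genes among 63, with a median of 0.13, where 26.3% of all genes were called. Without NAC library 1 its median was 0.25, against 0.012 over all tested genes. Of 37 genes of the PINK1 pathway, PINK1 included, 22 were higher and 4 lower. With the trend removed 13 were higher and 3 lower, where 26.3% of all genes were called. Their median log2 fold change was 0.45, and 0.42 without NAC library 1. OMA1 rose by 1.25 (standard error 0.14, adjusted p = 3.85e-05), or 0.42 (adjusted p = 0.0509) with the trend removed. PMPCB rose by 1.08 (adjusted p = 5.31e-05) and by 0.64 (adjusted p = 0.00261) with the trend removed, and NIPSNAP2 by 1.07 (adjusted p = 3.79e-05) and 0.46 (adjusted p = 0.00461).

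Among the regulators of the receptors, 8 were higher and 7 lower with NAC of 21 tested, where 44.6% of all tested genes were called, and 5 were higher and 4 lower of 20 with the trend removed. ULK1 was at 139 and 144 CPM in untreated KO cells and at 61.0 and 64.0 CPM with NAC. The groups lay far apart, and ULK1 fell by 1.18 on the log2 scale (standard error 0.11, adjusted p = 1.77e-05), or by 0.39 (adjusted p = 0.00507) with the trend removed. SRC, a kinase that acts on FUNDC1, was at 61.5 and 63.0 CPM without NAC and at 29.2 and 33.3 CPM with it. It fell by 1.00 on the log2 scale (adjusted p = 3.18e-05), or by 0.42 (adjusted p = 0.00655) with the trend removed. AMBRA1, a further LC3-binding mitophagy protein, fell by 0.57 on the log2 scale (adjusted p = 0.000456), with a value of -0.014 (adjusted p = 0.930) after trend removal. BCL2, the survival protein that binds BNIP3, fell by 0.66 on the log2 scale (adjusted p = 0.0481), with -0.50 (adjusted p = 0.159) after trend removal. The BCL2 call was also lost without either KO library, either low-oxygen library or NAC library 1, with adjusted p from 0.0571 to 0.171. Of the 7 LC3 and GABARAP genes, 3 were higher and 0 lower, and 0 were called with the trend removed.

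**Figure D4:**
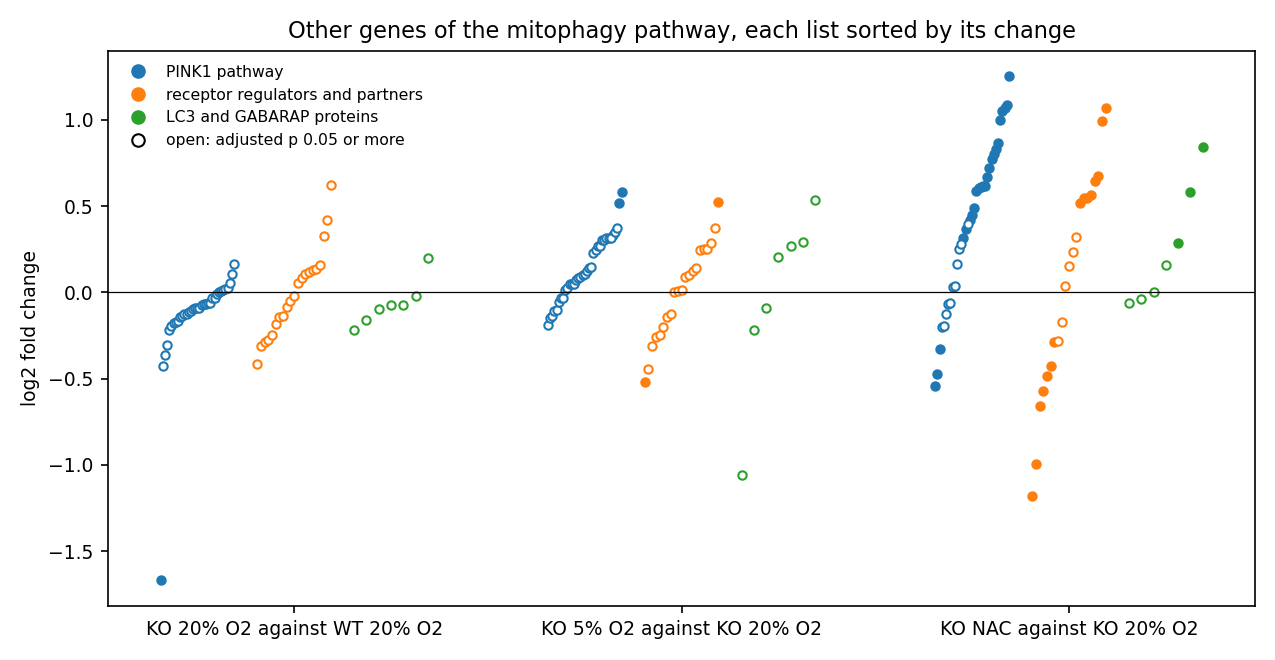
Log2 fold change of each other gene of the mitophagy pathway in 3 comparisons, sorted within each list, with filled circles for an adjusted p under 0.05. OPTN at -1.67 is the single filled point in KO against WT, and with NAC filled points lie from -1.18 for ULK1 to 1.25 for OMA1, with 1 list member not plotted.

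Of the 32 known HIF targets, 16 were higher and 1 lower with NAC, where 44.6% of all tested genes were called, and the median log2 fold change was 0.44. The trend-removed values had 12 higher and 0 lower, around a median of 0.31, where 26.3% of all genes were called. The median was 0.077 without NAC library 1 and 0.63 without NAC library 2, against 0.012 and 0.0044 over all tested genes. Of the 14 nuclear genes for mitochondrial proteins and their regulators, 6 were higher and 4 lower with NAC, and 6 and 2 with the trend removed. The shares of all tested genes called were 44.6% and 26.3%.

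Set directly against each other, the 2 treatments differed in 5 of the 7 genes, 1 higher and 4 lower with NAC, where 29.1% of all tested genes were called, 15.5% higher and 13.6% lower. By fold size 1 of 7 was called, BNIP3, where 4.42% of all tested genes were. BNIP3 was lower with NAC than in 5% O2, with a log2 fold change of -1.90 ± 0.23 (SE, adjusted p = 0.000389), and between -2.47 and -1.49 when either NAC library was left out. With the trend removed it was -2.30 (adjusted p = 0.000326). BNIP3L differed by -0.55 (standard error 0.15, adjusted p = 0.0172), a call lost without NAC library 2 or either low-oxygen library (adjusted p from 0.0501 to 0.109) and kept with the trend removed (-0.93, adjusted p = 0.00338). PINK1 was lower with NAC, at -0.58 (standard error 0.18, adjusted p = 0.0282), with -0.36 (adjusted p = 0.263) without low-oxygen library 2 and -0.41 (adjusted p = 0.109) with the trend removed. PHB2 was higher (0.35, adjusted p = 0.0123) and FKBP8 lower (-0.31, adjusted p = 0.0163), and neither was called without low-oxygen library 2 (adjusted p = 0.118 and 0.155). With the trend removed PHB2 kept its call (0.33, adjusted p = 0.0111) and FKBP8 did not (-0.11, adjusted p = 0.363).

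Against WT cells in normal oxygen, which are shared by both of the next comparisons, KO cells in 5% O2 had 3 of 7 genes called where 3.27% of all tested genes were, 1.78% higher and 1.48% lower. By fold size 2 of 7 were called, where 3.53% of all tested genes were. BNIP3 (log2 fold change 2.45, standard error 0.23, adjusted p = 0.000154) and BNIP3L (1.31, standard error 0.15, adjusted p = 0.000564) were higher, and both kept their calls with the trend removed (2.35 and 1.21). PINK1 was lower, with a log2 fold change of -0.74 ± 0.17 (SE, adjusted p = 0.0402), or -0.65 (adjusted p = 0.0459) with the trend removed. The call was lost when a replicate block was added to the trend removal (-0.65, adjusted p = 0.0516). Leaving out either library of the WT, KO or low-oxygen group ended that PINK1 call, with adjusted p from 0.0709 to 0.349. KO cells with NAC had 5 of 7 genes called against WT, 3 higher and 2 lower, where 38.2% of all tested genes were, 20.6% higher and 17.6% lower. By fold size 1 of 7 was called, PINK1, where 6.2% of all tested genes were. PINK1 was lower, with -1.32 on the log2 scale (standard error 0.18, adjusted p = 0.00026), and -1.06 (adjusted p = 0.00191) with the trend removed. BNIP3L (0.77, adjusted p = 0.00211), FUNDC1 (0.51, adjusted p = 0.00964) and PHB2 (0.33, adjusted p = 0.0120) were higher and FKBP8 (-0.35, adjusted p = 0.00685) was lower, while BNIP3 at 0.55 had an adjusted p of 0.0710. Without NAC library 1 BNIP3L was at 0.46 (adjusted p = 0.00504) and BNIP3 at -0.019 (adjusted p = 0.915), and without NAC library 2 BNIP3 was at 0.96 (adjusted p = 2.76e-05). Of the 4 called genes other than PINK1, PHB2 alone kept its call with the trend removed and lost it without WT library 1 (adjusted p = 0.111), and FUNDC1 lost its call without WT library 2 (adjusted p = 0.0852).

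The balance between the receptors and the kinase was read as the ratio of levels per kilobase within each library. The ratio of BNIP3 to PINK1 was 7.80 and 8.24 in WT and 10.6 and 10.2 in KO cells in normal oxygen. It was 89.2 and 61.0 in 5% O2 and 38.2 and 20.1 with NAC, so each treated library was above each untreated one. The ratio of BNIP3L to PINK1 was 2.01 and 1.81 in WT, 2.48 and 2.26 in KO, 9.55 and 6.64 in 5% O2 and 9.48 and 6.65 with NAC. As counted, the 2 treatments overlapped in this ratio. FUNDC1 relative to PINK1 was at 4.42 and 3.66 in 5% O2 and at 7.33 and 7.05 with NAC, against 2.67 and 2.39 in untreated KO cells. These ratios are as counted, and the BNIP3 and PINK1 levels in them may both be understated. With the trend removed, the fitted log2 change of BNIP3 over PINK1 against untreated KO went from 2.82 to 2.45 in 5% O2, and with NAC it was lower than as counted, at 0.55. For BNIP3L over PINK1 it went from 1.74 to 1.42 in 5% O2 and from 1.78 to 0.90 with NAC, so that the 2 treatments then differed by -0.52 for NAC against 5% O2, compared with 0.033 as counted. For FUNDC1 over PINK1 it went from 0.67 to 0.18 and from 1.52 to 0.25. Without NAC library 1, the library with fibroblast transcripts, and with the trend left in, the changes with NAC rest on NAC library 2 alone. The change was then 0.96 for BNIP3 over PINK1, again lower than as counted. It was 1.49 for BNIP3L over PINK1 and 1.49 for FUNDC1 over PINK1. For BNIP3L over PINK1, NAC then differed from 5% O2 by -0.25, so the near-equal value of 0.033 depended on NAC library 1. No test was made of a ratio.

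**Figure D5:**
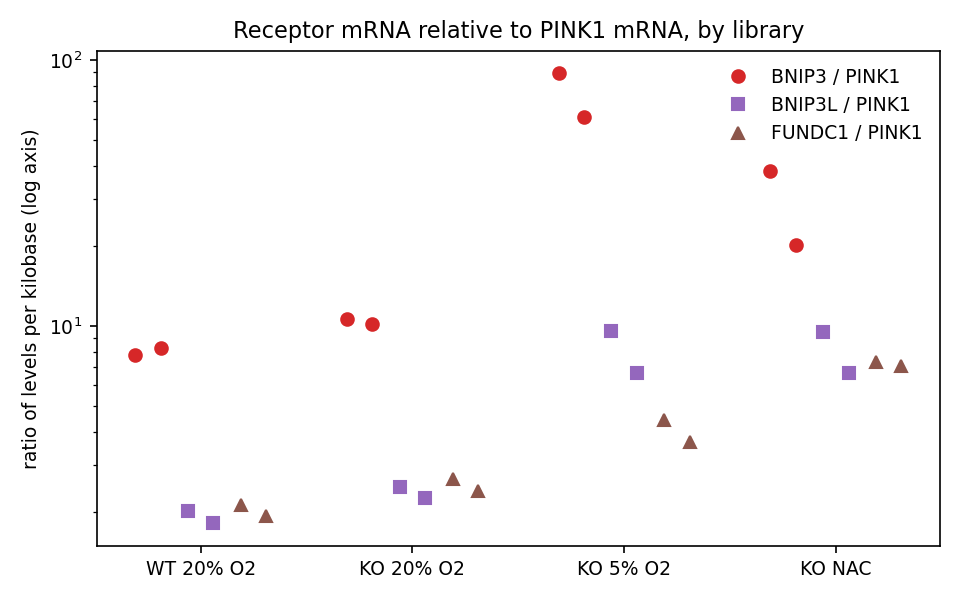
Ratio of BNIP3, BNIP3L and FUNDC1 levels per kilobase to that of PINK1 in each library, on a log axis, with 2 points per group. The BNIP3 ratio is highest in 5% O2 at 89.2 and 61.0, and the BNIP3L ratios in 5% O2 and with NAC overlap as counted.

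Over the 8 libraries, log2 CPM of BNIP3 and BNIP3L had a Pearson correlation of 0.92, and that of PINK1 with FKBP8 was 0.88 and with FUNDC1 -0.78. These describe 4 groups of libraries that share their conditions, depth and base composition, and carry no test. Among 12270 genes, the 5 most like BNIP3 were MPI (r = 0.99), PDK1, LDHA, EGLN1 and MTFP1 (r = 0.98), with Spearman rank correlations between 0.57 and 0.86. PDK1 is a pyruvate dehydrogenase kinase, LDHA makes lactate, and EGLN1 is an oxygen-sensing prolyl hydroxylase. For BNIP3L they were PLOD2 (r = 0.99), INSIG2, GBE1, SLC2A14 and PGAM1 (r = 0.99). PINK1 was most like UNC45A (r = 0.98), TSPAN33, NAT14, WDR4 and ELK1 (r = 0.98).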

How the data were processed

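RNA from WA26 hESCs was sequenced from unstranded TruSeq libraries. The authors used trim-galore for trimming, hisat2 for alignment to hg38, and featureCounts at its defaults, which ignore strand and drop reads that match several places or genes. What they deposited are unnormalized gene counts. The labels' processing notes also name FastQC 0.11.9. Of 12 labelled samples, 8 had a column, and the other 4 were not analysed here.

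The 7 genes, the gene lists and the alternatives were chosen with earlier results of these data known. Genes were filtered with filterByExpr (minimum count 10), scaled by TMM and tested with edgeR 4.0.16's quasi-likelihood test in R 4.3.3, with 1 term per group over 8 libraries, 4 residual degrees of freedom and no block. P-values were adjusted by Benjamini-Hochberg over 15916 genes. The biological coefficient of variation was 13.7%. Levels per kilobase used GENCODE v44 transcript lengths. Named pathway genes were, per comparison, up to 4 in each direction with the largest change among called genes whose groups did not overlap, and 1 further gene of the rule is not reported here. Genes of like pattern had a mean of at least 1 log2 CPM (prior count 2). Trends on length and GC content were fitted with mgcv 1.9.3 and known for 96.0% of tested genes. Other alternatives were DESeq2 1.42.0, RLE and upper quartile scaling, 2 filters, a replicate block, fits of the compared groups alone, calls by an absolute log2 fold change over 1 with unadjusted p under 0.05, and leaving out each library. Replicates differed by more than sampling noise. Chi-square per degree of freedom was 17.5 in WT, 9.79 in untreated KO, 13.3 in 5% O2 and 32.4 with NAC. The 4 groups shared 1 spread estimate per gene. Fits of the compared libraries alone called 7.24% of tested genes in KO against WT, 19.6% in 5% O2 and 39.9% with NAC. The shared fit called 1.96%, 7.81% and 44.6%. The computations were tested on simulated data.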

Additional observations from a re-analysis of the deposited data

How the results depend on the processing

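Of 1025 alternative values of log2 fold changes, 867 kept direction and side of the threshold. With the sign kept, 115 lost the call and 9 gained one. The other 34 turned sign, with or without the loss of a call. The rule on fold size used the main fit, so its values could not change direction. Some fits without 1 library dropped a library outside the comparison. By the rule on fold size, the 7 genes held 0 calls for NAC against KO, 1 against WT and 1 against 5% O2, and the wider list held 0 in 5% O2 and 7 with NAC, since that rule asks for larger changes. With the length and GC trend removed, calls among the 7 genes were 3, 2 and 3 in the same order. The shares of all genes called were then 26.3%, 20.1% and 16.1%. In the wider list calls were 0 in 5% O2 and 24 with NAC, where 2.11% and 26.3% of all genes were called. The replicate block with the trend gave 3, 2 and 3, then 0 and 23. The wider list in KO against WT (1 call) held 5 with DESeq2, with no filter and with the compared libraries alone, and 1 to 7 without 1 library. In 5% O2 (5 calls) it held 15 with DESeq2, 12 with no filter, 19 with the compared libraries alone, 8 with the replicate block, and 0 to 17 without 1 library; with NAC 31 to 48. Calls among the 7 genes without 1 library ran from 0 to 0 in KO against WT, 2 to 3 in 5% O2, 4 to 7 with NAC, 2 to 3 and 4 to 7 against WT, and 1 to 5 between the treatments. Of all tested genes, 1.96% were called in KO against WT. That share was 6.43% with DESeq2, 5.92% with no filter and 7.24% with the compared libraries alone. In 5% O2 the shares were 7.81%, 17.7%, 10.5% and 19.6% in that order, and 8.9% with the replicate block. The cause of these moves was not tested.

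Signs turned with the trend removed, and likewise with the block added, for BNIP3 (0.066 and 0.067) and FUNDC1 (0.091 and 0.090) in KO against WT, for BNIP3 (-0.019 and -0.045), FUNDC1 (-0.32 and -0.32) and FKBP8 (0.052 and 0.051) with NAC, for PHB2 (0.028 and 0.029) and FKBP8 (0.087 and 0.088) in 5% O2 against WT, and for FUNDC1 with NAC against WT (-0.23 and -0.23) and against 5% O2 (-0.33 and -0.33). FKBP8 in 5% O2 was -0.00032 with no filter, -0.0044 with 10 counts in every library and -0.0015 with the compared libraries alone. Without 1 library, values that crossed 0 ran from -0.17 to 0.012 for BNIP3 and -0.079 to 0.0077 for FKBP8 in KO against WT, from -0.011 to 0.10 for BCL2L13 and -0.067 to 0.067 for FKBP8 in 5% O2, from -0.12 to 0.084 for PHB2 and -0.10 to 0.031 for FKBP8 in 5% O2 against WT, from -0.019 to 0.96 for BNIP3 and -0.092 to 0.33 for BCL2L13 with NAC against WT, and from -0.025 to 0.39 for BCL2L13 between the treatments. Replicate numbers did not pair the libraries (correlations of deviations from -0.023 to 0.082), and the replicate block alone changed no call among the 7 genes. Added to the trend removal, it ended the PINK1 call in 5% O2 against WT (adjusted p = 0.0516). With 2 libraries per group, small changes are within the spread.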
